A study of Mus musculus with 18 samples.

Results

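The integrin and laminin genes make up 36 of the 19937 genes with a single annotated symbol on these mouse arrays. They are 18 integrin alpha subunits, 8 integrin beta subunits and 10 laminin chains. A gene was taken when its symbol was Itga or Itgb followed by a subunit number or letter, or Lama, Lamb or Lamc followed by a chain number, whatever its values. Where a gene had several probe sets, the one highest on average was read, which applied to Itgad alone (2 probe sets).

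Integrins are cell-surface receptors made of an alpha and a beta subunit, and the pairing decides which matrix protein the cell binds. Laminins are cross-shaped trimers of an alpha, a beta and a gamma chain that build the basement membrane, the thin matrix sheet under epithelia. Embryonic stem cells and the early epiblast rest on laminin through alpha6 beta1 integrin, whereas fibroblasts attach mainly to fibronectin and collagen.

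Arrays were run on 6 groups, 3 arrays each. The starting cells were CD1 mouse embryonic fibroblasts (MEFs), grown in serum-containing DMEM. From such MEFs, retroviruses (pMX-Oct4, pMX-Klf4 and pMX-Sox2) had produced 3 iPS lines, EOS3F-24, labelled partial, and EOS3F-28 and EOS3F-29, labelled full. The fifth group was EOS3F-24 after 2i conversion with a MEK inhibitor (2 μM) and a GSK inhibitor (12 μM) in ES medium with LIF, and the sixth was the ES cell line J1. LIF and arrested feeder cells were used for the iPS clones and for J1, with puromycin (1 μg/ml) for EOS3F-24, EOS3F-28 and EOS3F-29. The partial state is therefore represented by 1 line, and against MEFs the change of culture cannot be told apart from reprogramming. The labels do not say that the arrays of a group came from separate cultures, so the p-values rest on the spread of these arrays, and that spread may be technical.

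Array medians lay between 3.92 and 4.11 on the log2 scale. A list of 10 pluripotency markers averaged 3.75 in MEFs, 5.47 in EOS3F-24, 8.16 in EOS3F-28, 8.21 in EOS3F-29, 8.87 after 2i and 8.92 in J1. A list of 19 fibroblast and feeder cell markers averaged 8.44 to 8.69 in the MEF arrays. In the 5 feeder-grown groups it was highest in replicate 1 each time (6.94 to 7.89, against 5.91 to 6.72 in replicates 2 and 3). MEF replicate 2 stood apart in keratinocyte markers, 10 of 12 of which were highest there among the MEFs: Krt5 read 7.70 against 3.49 and 3.62, and Krt14 read 7.10 against 4.10 and 4.18. Counts against MEFs, and the main calls that change, are also given without these arrays. RNA was taken from whole cultures, so fewer cells of a type and less RNA per cell cannot be told apart.

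Promoter sequence was read for 23 of the 36 genes (26 promoters, RefSeq, GRCm38.p6), and Lama3 was not among them. Of these promoters, 6 are printed here because they belong to members that moved in opposite directions from MEFs. Itgav, Itga5, Itgb1 and Lama2 were lower in EOS3F-24, the full lines and J1, and Lama5 and Itgb7 were higher. Each line holds the 250 bases upstream of the annotated start, 5′ to 3′ on the gene's strand. Capitals mark a GC box (GGGCGG on either strand) or, in Lama2, a CArG box. The windows are chr2:83724147-83724396 (plus strand) for Itgav, chr15:103366792-103367041 (minus) for Itga5, chr8:128685404-128685653 (plus) for Itgb1, chr10:27616943-27617192 (minus) for Lama2, chr2:180225860-180226109 (minus) for Lama5 and chr15:102231936-102232185 (minus) for Itgb7.
Itgav: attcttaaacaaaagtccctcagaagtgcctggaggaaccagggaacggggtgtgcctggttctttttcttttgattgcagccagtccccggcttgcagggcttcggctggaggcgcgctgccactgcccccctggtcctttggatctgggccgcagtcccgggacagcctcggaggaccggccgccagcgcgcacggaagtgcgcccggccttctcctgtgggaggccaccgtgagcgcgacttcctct
Itga5: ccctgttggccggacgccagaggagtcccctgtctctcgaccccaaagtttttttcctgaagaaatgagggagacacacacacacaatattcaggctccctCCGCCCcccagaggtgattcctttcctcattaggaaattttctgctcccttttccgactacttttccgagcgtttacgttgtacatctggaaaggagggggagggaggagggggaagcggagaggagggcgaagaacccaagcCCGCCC
Itgb1: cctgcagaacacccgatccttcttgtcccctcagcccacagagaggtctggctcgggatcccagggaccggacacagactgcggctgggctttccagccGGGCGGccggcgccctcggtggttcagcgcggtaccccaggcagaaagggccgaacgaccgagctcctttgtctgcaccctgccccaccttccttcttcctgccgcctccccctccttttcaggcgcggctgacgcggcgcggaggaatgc
Lama2: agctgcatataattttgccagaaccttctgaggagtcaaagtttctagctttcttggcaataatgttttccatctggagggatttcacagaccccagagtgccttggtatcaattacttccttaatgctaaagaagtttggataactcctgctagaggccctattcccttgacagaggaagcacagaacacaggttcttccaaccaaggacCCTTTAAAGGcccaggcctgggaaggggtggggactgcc
Lama5: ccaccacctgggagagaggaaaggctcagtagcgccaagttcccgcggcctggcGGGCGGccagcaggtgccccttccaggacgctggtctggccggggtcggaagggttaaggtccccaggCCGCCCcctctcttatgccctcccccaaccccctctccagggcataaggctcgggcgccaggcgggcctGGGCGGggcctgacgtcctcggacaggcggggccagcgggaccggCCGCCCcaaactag
Itgb7: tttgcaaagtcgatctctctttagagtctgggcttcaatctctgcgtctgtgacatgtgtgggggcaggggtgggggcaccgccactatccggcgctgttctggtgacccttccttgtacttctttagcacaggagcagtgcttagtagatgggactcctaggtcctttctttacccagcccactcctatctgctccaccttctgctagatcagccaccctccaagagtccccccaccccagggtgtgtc

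The printed windows differed in composition and motifs. Itgb1, Itgav and Lama5 have CpG-rich windows with 21, 18 and 19 CpG, against a median of 6 over all 32817 promoters in the table. Itga5 has 11 CpG, Itgb7 has 5 and Lama2 has 0. GGGCGG occurred in 9 of the 26 integrin and laminin promoters, against 32.7% of all promoters, with 4 copies in Lama5, 2 in Itga5 and 1 in Itgb1. TATAAA occurred in 0 of the 26, against 12.4% of all, and TGANTCA in 1, against 6.75%. A CArG box occurred in 2 (Lama2 and Itgb6), against 1.47%. Both strands were searched, and a TATAAA can lie inside a CArG box.

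Against MEFs, the genes for fibroblast-type matrix receptors and for the laminin chains alpha2, beta1 and beta2 were lower in EOS3F-24, in the full lines and in J1. The laminin chain Lama5, the laminin receptor subunit Itga6 and the leukocyte integrin subunit Itgb7 were higher. In EOS3F-24, 6 members rose and 15 fell at an adjusted p under 0.05, against a background of 13.7% of all genes higher and 10% lower. In either direction this was 58.3% of the members against 23.7% of all genes. The full lines, EOS3F-28 and EOS3F-29 averaged, had 7 higher and 15 lower (background 17.1% and 17.8%), or 61.1% against 35%. J1 had 5 higher and 15 lower (background 20.6% and 17.5%), or 55.6% against 38%. With at least a 2-fold change, 5 rose and 10 fell in EOS3F-24, 1 rose and 10 fell in the full lines, and 3 rose and 11 fell in J1. The corresponding background was 2.91% and 3.31%, 3.09% and 4.72%, and 5% and 6.34%. These 3 comparisons share the MEF arrays and are not independent of each other. Leaving out MEF replicate 2 gave 6 higher and 15 lower in EOS3F-24, 7 and 14 in the full lines, and 5 and 13 in J1. Leaving out replicate 1 of all feeder-grown groups gave 7 and 14, 9 and 15, and 6 and 15.

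The counts of rises depended on the scale that the arrays share. When each array was centred on the median level of 23 housekeeping genes, the difference of a typical gene moved by -0.55 in EOS3F-24 against MEFs, -0.40 in the full lines and -0.53 in J1. The member counts then became 5 higher and 23 lower, 2 and 20, and 3 and 23, so that 17.9%, 9.09% and 11.5% of the called members were higher, against 28.6%, 31.8% and 25% on the deposited scale. The same centring moved a typical gene by -0.58 in 2i converted against EOS3F-24 cells, by -0.74 in 2i converted cells against the full lines and by -0.15 in EOS3F-24 against the full lines. That median is the level of 1 middle gene. Centring instead on the same genes' deviations from their own means, an alternative chosen after seeing the data, moved a typical gene by -0.01, 0.06 and 0.03 against MEFs and gave 6 higher and 13 lower, 7 and 14, and 5 and 14. Differences below are on the deposited scale, and a called difference whose direction turns under the first centring is named where it occurs. An uncalled rise smaller than the shift of its comparison turns under it as well.

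**Figure D1:**
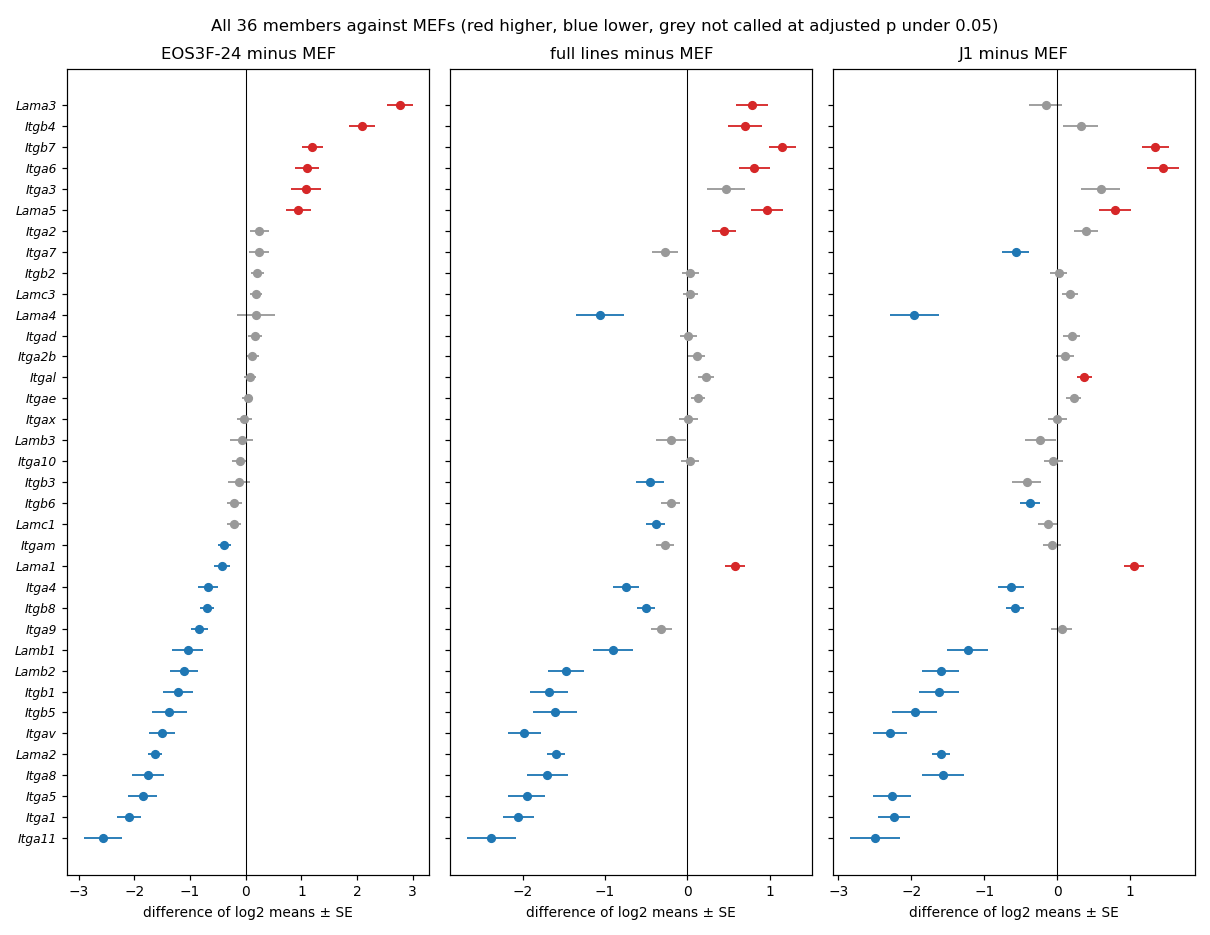
Difference of log2 means from MEFs for all 36 integrin and laminin genes in EOS3F-24 (left), the full lines (middle) and J1 (right), each with its SE and 3 arrays a group (6 for the full lines). Itga11, Itga1 and Itga5 sit lowest in EOS3F-24, at -2.57, -2.10 and -1.85, and Lama3 and Itgb4 sit highest there, at 2.77 and 2.09.

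Among the 4 collagen receptor alpha subunits, Itga1 and Itga11 fell. Itga11, the receptor subunit for fibrillar collagen, read 7.54, 6.99 and 7.97 in the MEFs, and 5.70, 4.40 and 4.70 in EOS3F-24. It read 5.04, 4.66 and 4.97 in EOS3F-28, 6.17, 5.11 and 4.75 in EOS3F-29, 5.11, 4.59 and 4.88 after 2i, and 5.21, 4.62 and 5.16 in J1. All MEF arrays lay above all other arrays. The differences from MEFs were -2.57 ± 0.34 in EOS3F-24 (SE, 5.93-fold, adjusted p = 2.59e-05), -2.38 ± 0.30 in the full lines and -2.50 ± 0.34 in J1. Itga1, which binds collagen IV and fibrillar collagen, read 6.30, 5.42 and 6.15 in MEFs and between 3.55 and 4.33 in the other 15 arrays. It was lower by 4.27-fold in EOS3F-24, 4.15-fold in the full lines and 4.71-fold in J1. Itga2 was 0.44 higher in the full lines (adjusted p = 0.0232) and not called in EOS3F-24 (0.24) or J1 (0.40). The Itga2 call was lost without MEF replicate 1, without MEF replicate 3, without EOS3F-28 replicate 3 and with either full line alone, and its difference was 0.04 after housekeeping centring. Itga10 stayed between means of 3.85 and 4.09 in the 6 groups and was called in none of these comparisons.

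The receptors for the RGD sequence, the short motif in fibronectin and vitronectin, gave 3 falls of 4 members in every one of these comparisons. Itga5, the alpha subunit of the fibronectin receptor, read 8.17, 8.18 and 7.33 in the MEFs. In EOS3F-24 it read 6.23, 6.18 and 5.71, after 2i 5.92, 5.28 and 5.34, and in J1 6.01, 5.26 and 5.62. The EOS3F-28 values were 5.97, 5.47 and 5.96 and the EOS3F-29 values 6.53, 5.83 and 5.89. No array of another group reached the lowest MEF value. Itga5 was lower by 3.61-fold in EOS3F-24 (adjusted p = 4.71e-05), 3.87-fold in the full lines and 4.79-fold in J1. Itgav, which pairs with several beta subunits to bind vitronectin, read 8.91, 8.62 and 8.69 in MEFs. It read 7.36, 7.31 and 7.02 in EOS3F-24, 6.79, 6.42 and 6.64 in EOS3F-28, 7.64, 6.74 and 6.34 in EOS3F-29, and 6.65, 6.22 and 6.50 in J1. Its differences were -1.51 ± 0.23, -1.98 ± 0.20 and -2.29 ± 0.23 (SE) in EOS3F-24, the full lines and J1. Itga8, a receptor for nephronectin, read 6.42, 5.06 and 5.08 in MEFs and between 3.48 and 4.33 elsewhere, with differences of -1.75, -1.70 and -1.56. Itga2b, the platelet receptor subunit, had group means of 3.92 to 4.09 and was not called.

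Of the beta subunits that pair with these receptors, Itgb1 fell in all of these comparisons, and 2 of 4 alpha-v partners fell in EOS3F-24, 3 of 4 in the full lines and 3 of 4 in J1. Itgb1, the shared partner of most matrix-binding alpha subunits, read 10.40, 10.10 and 10.41 in MEFs. It read 9.22, 9.07 and 8.98 in EOS3F-24, 8.95, 8.21 and 8.69 in EOS3F-28, 9.33, 8.33 and 8.24 in EOS3F-29, and 9.08, 8.39 and 8.59 in J1. Its differences were -1.22 ± 0.27 in EOS3F-24 (SE, adjusted p = 0.00262), -1.68 ± 0.23 in the full lines and -1.62 ± 0.27 in J1, with no overlap between the arrays in any of them. Itgb5, an alpha-v partner that binds vitronectin, read 8.37, 8.24 and 8.66 in MEFs and between 6.04 and 7.66 in all others, with differences of -1.37, -1.61 and -1.95. Itgb8, an alpha-v partner that activates TGF-beta, had differences of -0.70, -0.51 and -0.57, all called. Itgb3, the other main vitronectin partner of alpha-v, was lower in the full lines (-0.46, adjusted p = 0.0472) and not called in EOS3F-24 (-0.12) or J1 (-0.42). The full-line call of Itgb3 was lost when any of 7 single arrays was left out (MEF replicates 1 and 2, the 3 EOS3F-28 replicates, EOS3F-29 replicates 2 and 3), at -0.32 without MEF replicate 2. Itgb6, an epithelial partner, was lower in J1 (-0.37, adjusted p = 0.0333) and lost this call without J1 replicate 1, MEF replicate 1 or MEF replicate 2.

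**Figure D2:**
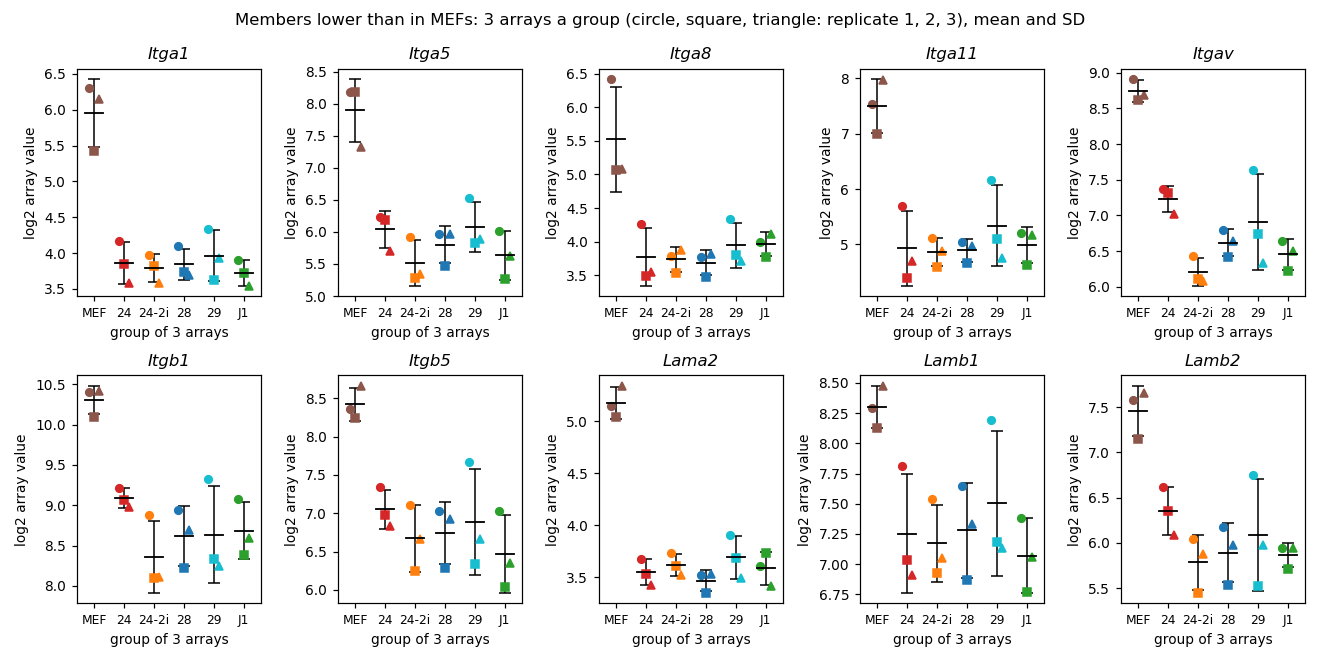
Log2 array values of 10 members that were lower than in MEFs, by group (MEF, EOS3F-24 as 24, EOS3F-24 after 2i as 24-2i, EOS3F-28 as 28, EOS3F-29 as 29, J1), with points for single arrays and bars for mean and SD of 3 arrays. The MEF arrays lie above all others in every panel except Lamb1, where replicate 1 of EOS3F-29 (8.19) exceeds the lowest MEF array (8.13).

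The fibroblast marker level moved with these falls, and for some of these members also with the spread inside the groups. Of its 19 measured genes, 15 were lower in EOS3F-24, 15 in the full lines and 16 in J1, and 1 was higher in each. Itga1, Itga5, Itga11, Itgav, Itgb1, Itgb5, Lamb1 and Lamb2 were highest in replicate 1 of all 5 feeder-grown groups, the arrays with the highest fibroblast marker level. Of the other members, 9 were highest in replicate 1 of no group, among them Lama3, Itgb4, Itgb7, Lama5 and Itga6. The other 19 lay between, among them the falling Itga8 (2 of 5 groups) and Lama2 (3 of 5). The share of all genes with either pattern is not given here, so this split cannot be read as particular to these members. Arrested feeder cells grew under every group except the MEFs, and their part in these levels was not tested against MEFs.

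**Figure D3:**
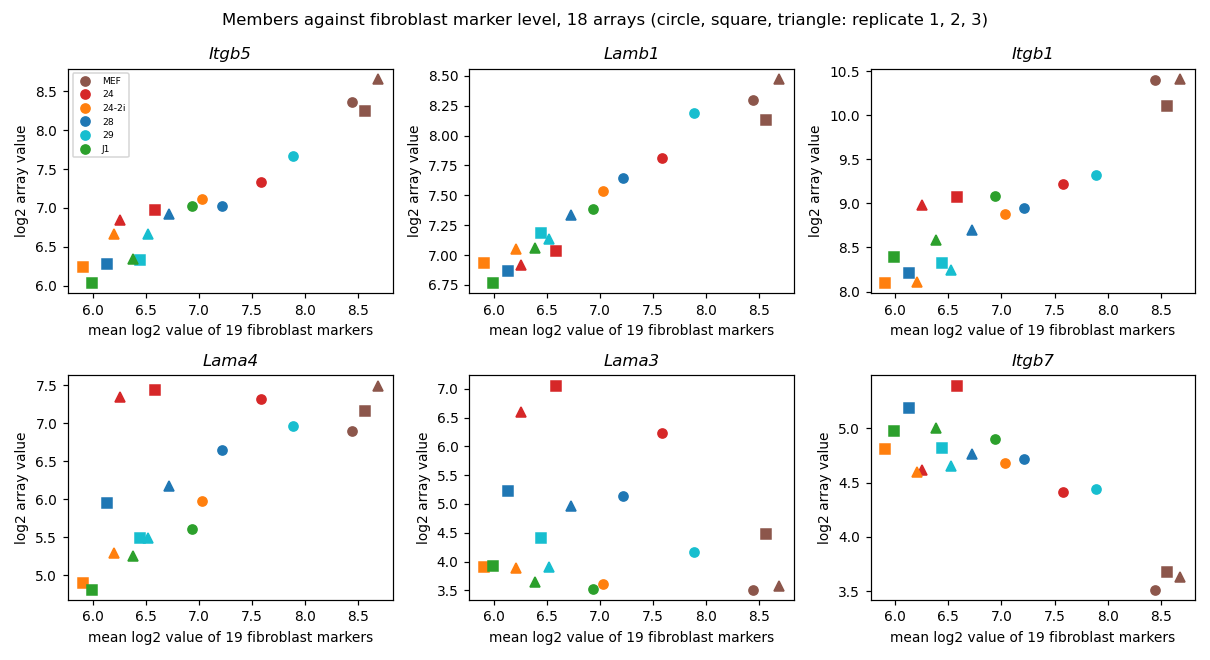
Log2 value of 6 members (vertical) against the mean log2 value of 19 fibroblast markers on the same array (horizontal), for 18 arrays coloured by group. The MEF arrays, highest in the markers, are highest in Itgb5 and Itgb1, whereas the 3 EOS3F-24 arrays are highest in Lama3 (6.23 to 7.05) and stay at 7.32 to 7.44 in Lama4.

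The alpha4 and alpha9 subunits, which bind VCAM-1, fibronectin or tenascin, changed less. Itga4 fell by 0.68, 0.75 and 0.63 on the log2 scale in EOS3F-24, the full lines and J1, with the EOS3F-24 call lost without EOS3F-24 replicate 3 (adjusted p = 0.0719) and the J1 call without J1 replicate 3 (adjusted p = 0.0572). Itga9 read 4.62, 4.96 and 4.65 in the MEFs and 4.19, 3.79 and 3.74 in EOS3F-24, a difference of -0.83 ± 0.15 (SE, adjusted p = 0.000379) with no overlap. In the full lines (-0.32) and J1 (0.06) it was not called.

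Leukocyte integrins were low in every group. The 5 leukocyte alpha subunits Itgad, Itgae, Itgal, Itgam and Itgax and the beta subunit Itgb2 had group means between 3.10 and 4.16, beside array medians of 3.92 to 4.11, and 12 leukocyte markers averaged 3.97 to 4.06 by group. Itgam differed by -0.38 in EOS3F-24 (adjusted p = 0.0288), a call lost when any EOS3F-24 array or MEF replicate 3 was left out (-0.21 without the latter). Itgal was 0.38 higher in J1 (adjusted p = 0.00896), a call lost without J1 replicate 2, and it turned to -0.16 after housekeeping centring. Itgb7, the partner of alpha4 in lymphocyte homing and of alphaE, differed from the rest of this group. It read 3.52, 3.68 and 3.63 in MEFs and 4.41, 5.39 and 4.61 in EOS3F-24. In EOS3F-28 it read 4.72, 5.18 and 4.77, in EOS3F-29 4.44, 4.82 and 4.65, after 2i 4.68, 4.81 and 4.60, and in J1 4.90, 4.97 and 5.0. Every MEF array was below every other array, and Itgb7 was higher by 2.29-fold in EOS3F-24 (adjusted p = 0.000131), 2.22-fold in the full lines and 2.55-fold in J1.

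Of the 3 laminin receptor alpha subunits, 2 rose in EOS3F-24, 1 rose in the full lines, and 1 rose and 1 fell in J1. Itga6, which with beta1 or beta4 forms the main laminin receptors of stem cells and epithelia, read 5.05, 5.16 and 4.68 in MEFs. It read 5.84, 5.94 and 6.41 in EOS3F-24, 5.79, 6.15 and 6.04 after 2i, 5.27, 5.93 and 5.52 in EOS3F-28, 5.76, 6.46 and 5.68 in EOS3F-29, and 6.12, 6.53 and 6.58 in J1. All MEF arrays were below all others. The rise was 1.11 ± 0.22 in EOS3F-24 (SE, adjusted p = 0.00102), 0.81 ± 0.19 in the full lines and 1.45 ± 0.22 in J1, and the full-line call was lost after housekeeping centring (0.41). Itga3, whose product binds laminins rich in alpha3 and alpha5 chains, read 4.61, 4.61 and 4.34 in MEFs and 5.13, 5.93 and 5.73 in EOS3F-24, a rise of 1.08 ± 0.27 (SE, adjusted p = 0.00623). In the full lines (0.47) and J1 (0.60) Itga3 was not called, and without replicate 1 of all feeder-grown groups it was called in both (0.65, adjusted p = 0.0105, and 0.80, adjusted p = 0.00859). Itga7, the laminin receptor subunit of muscle, was lower in J1 (-0.57, adjusted p = 0.0197) and lost that call without J1 replicate 1 or MEF replicate 2.

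Itgb4, the partner of alpha6 in hemidesmosomes, was highest in EOS3F-24. It read 4.23, 4.71 and 4.01 in MEFs, 5.80, 7.0 and 6.43 in EOS3F-24, 5.21, 5.64 and 5.09 in EOS3F-28 and 4.68, 4.86 and 4.63 in EOS3F-29. After 2i it read 4.32, 4.61 and 4.49, and in J1 4.39, 4.78 and 4.76. EOS3F-24 lay above MEFs by 2.09 ± 0.24 (SE, 4.27-fold, adjusted p = 4.27e-06), and the full lines by 0.70 ± 0.20 (adjusted p = 0.0122). Without MEF replicate 2, the array with high keratinocyte markers, these differences were 2.29 and 0.90. The full-line call was lost without MEF replicate 1 (0.66), without MEF replicate 3 (0.55) and when EOS3F-29 stood alone for the full lines (0.40).

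The 5 laminin alpha chains went separate ways. Lama2, the chain of muscle and mesenchymal laminin, read 5.15, 5.04 and 5.34 in MEFs and between 3.35 and 3.90 in the other 15 arrays. Its differences from MEFs were -1.63 ± 0.12, -1.60 ± 0.11 and -1.59 ± 0.12 (SE), or 3.10-fold, 3.03-fold and 3.01-fold lower. Lama5, the alpha chain of laminin-511, read 5.44, 4.68 and 5.15 in MEFs. It read 5.62, 6.35 and 6.14 in EOS3F-24, 5.72, 6.28 and 5.75 in EOS3F-28, 5.91, 6.50 and 6.17 in EOS3F-29, 5.80, 6.09 and 6.06 after 2i, and 5.60, 5.90 and 6.16 in J1. No other array fell to the MEF level, and the rises were 0.95, 0.97 and 0.80. The J1 call for Lama5 (adjusted p = 0.00852) was lost without J1 replicate 3 (0.66) or MEF replicate 2 (0.59), and housekeeping centring left 0.39 in EOS3F-24 and 0.26 in J1, both uncalled.

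Lama1, Lama3 and Lama4 separated the cell lines. Lama1, the alpha chain of the first embryonic basement membranes, read 4.49, 4.11 and 4.53 in MEFs, 4.07, 3.93 and 3.85 in EOS3F-24, 4.61, 4.85 and 4.71 in EOS3F-28 and 5.01, 5.44 and 5.10 in EOS3F-29. After 2i it read 5.15, 5.32 and 5.39, and in J1 5.34, 5.30 and 5.66. It was below MEFs in EOS3F-24 (-0.43 ± 0.14 SE, adjusted p = 0.0331), and above them in the full lines (0.58 ± 0.12) and J1 (1.06 ± 0.14). The EOS3F-24 call for Lama1 was lost without any of 4 single arrays (EOS3F-24 replicates 2 and 3, MEF replicates 1 and 3; adjusted p 0.0903 to 0.136), and the full-line call for EOS3F-28 alone (0.35). Lama4, the chain of endothelial and mesenchymal laminin, read 6.90, 7.16 and 7.49 in MEFs and 7.32, 7.44 and 7.35 in EOS3F-24, a difference of 0.19 ± 0.34 with a 95% interval of -0.52 to 0.89. It read 6.64, 5.95 and 6.18 in EOS3F-28, 6.97, 5.50 and 5.49 in EOS3F-29, and 5.61, 4.81 and 5.25 in J1. Its differences were -1.06 ± 0.29 in the full lines (SE, adjusted p = 0.00776) and -1.96 ± 0.34 in J1 (adjusted p = 0.000151). Without MEF replicate 3 the full-line difference was -0.91 (adjusted p = 0.0525), no longer called.

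Lama3, the alpha chain of the epithelial laminin-332 that anchors hemidesmosomes, had the largest rise of the 36 genes in EOS3F-24 against MEFs. It read 3.51, 4.47 and 3.57 in the MEFs and 6.23, 7.05 and 6.59 in EOS3F-24. In EOS3F-28 it read 5.13, 5.22 and 4.96, in EOS3F-29 4.16, 4.41 and 3.91, after 2i 3.60, 3.91 and 3.89, and in J1 3.52, 3.92 and 3.65. EOS3F-24 was 2.77 ± 0.23 above MEFs (SE, 6.83-fold, adjusted p = 1.10e-07) and 3.08 above them without MEF replicate 2. The full lines were 0.78 ± 0.20 above MEFs (adjusted p = 0.00465), which was 1.09 without MEF replicate 2, 1.25 for EOS3F-28 alone and 0.31 for EOS3F-29 alone (adjusted p = 0.341). J1 did not differ from MEFs beyond the error (-0.16, 95% interval -0.64 to 0.33). Housekeeping centring ended the full-line calls of Lama3 (0.38), Itgb4 (0.30) and Lama1 (0.17), and gave a called fall of Lama3 in J1 (-0.69, adjusted p = 0.00925). Lamb3, the beta chain of the same trimer, had group means of 3.91 to 4.19 and was not called, and its highest value of 4.92 was MEF replicate 2.

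The widely used beta and gamma chains fell or stayed. Lamb1 read 8.29, 8.13 and 8.48 in MEFs, 7.81, 7.04 and 6.91 in EOS3F-24, 7.65, 6.87 and 7.33 in EOS3F-28, 8.19, 7.18 and 7.13 in EOS3F-29, 7.54, 6.93 and 7.05 after 2i and 7.38, 6.77 and 7.06 in J1. Its differences were -1.05, -0.91 and -1.23 in EOS3F-24, the full lines and J1, and the EOS3F-24 call was lost without EOS3F-24 replicate 2 (adjusted p = 0.0552) or 3 (adjusted p = 0.0674). Lamb2, found at synapses and in the kidney, read 7.58, 7.15 and 7.66 in MEFs and 6.61, 6.35 and 6.09 in EOS3F-24, with differences of -1.11, -1.47 and -1.60 in EOS3F-24, the full lines and J1. Lamc1, the gamma chain of most laminins, read 7.25, 7.39 and 7.23 in MEFs, 7.09, 7.04 and 7.10 in EOS3F-24, 6.83, 6.70 and 6.60 in EOS3F-28, 7.36, 7.21 and 6.73 in EOS3F-29 and 7.08, 7.07 and 7.32 in J1. Its largest difference was -0.38 ± 0.11 in the full lines (adjusted p = 0.0138), a call lost without MEF replicate 2 (-0.33) and for EOS3F-29 alone (-0.19). Lamc3 had group means of 3.97 to 4.24 and was not called.

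Matrix partners and adhesion machinery from lists chosen by function gave the surroundings of these changes. Of 20 basement membrane partners, 14 fell and 1 rose in EOS3F-24, 12 fell and 3 rose in the full lines and 11 fell and 4 rose in J1. The difference in EOS3F-24 was -2.36 for Col4a1, a chain of the collagen IV network beside laminin, and -2.63 for Nid1, which links laminin to collagen IV. The background of all genes was 10%, 17.8% and 17.5% lower and 13.7%, 17.1% and 20.6% higher. Of 33 adhesion adaptors, 18 fell and 1 rose in EOS3F-24, 21 fell and 0 rose in the full lines, and 22 fell and 1 rose in J1. These included vinculin (Vcl, -2.25 in EOS3F-24 and -2.15 in the full lines), which couples integrins to actin. Of 16 other integrin ligands, 8 fell and 0 rose in EOS3F-24, 8 fell and 3 rose in the full lines, and 10 fell and 3 rose in J1, with fibronectin (Fn1) at -2.02 in EOS3F-24 and Ccn2 at -2.60. The leukocyte adhesion ligand Icam1 was among the rises, at 1.27 in the full lines and 2.07 in J1. Medians over these 3 lists in EOS3F-24 were -0.94, -0.57 and -1.19, against 0.04 over all genes and -0.12 over the 36 integrin and laminin genes.

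EOS3F-24 differed from the full lines in 3 laminin alpha chains and 3 integrin subunits. Of the 36, 4 were higher in EOS3F-24 (Lama3, Lama4, Itgb4 and Itga7) and 2 were lower (Lama1 and Itga9), 16.7% in all against a background of 18.6% of all genes, so the share called was near that of genes in general. By direction the background was 12.8% higher and 5.78% lower. With at least a 2-fold change 3 were higher and 1 was lower (background 1.65% and 1.28%). Lama3 was 1.99 ± 0.20 higher (SE, 3.97-fold, adjusted p = 1.14e-06), Itgb4 1.39 ± 0.20 (2.62-fold, adjusted p = 9.08e-05) and Lama4 1.25 ± 0.29 (2.38-fold, adjusted p = 0.00492). Lama1 was 2.01-fold lower (-1.01 ± 0.12, adjusted p = 1.07e-05). For these 4 genes all EOS3F-24 arrays lay outside the range of the 6 full-line arrays, as for 4 members higher (with the uncalled Itgb3, 0.34) and 1 lower in all (background 11.9% and 7.02%), and the calls held in each of the 22 alternatives run on them. The Itga7 difference of 0.51 (adjusted p = 0.0310) and the Itga9 difference of -0.52 (adjusted p = 0.00720) overlapped between groups. Itga7 lost its call in 12 of 22 alternatives, among them without EOS3F-24 replicate 2 (0.33) or 3 (0.45), without EOS3F-29 replicate 2 or 3 and without EOS3F-28 replicate 1 or 3. Itga9 lost it without EOS3F-24 replicate 2 (adjusted p = 0.0557) or 3 (adjusted p = 0.0592) and against EOS3F-28 alone (-0.32).

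More members were called higher in EOS3F-24 once the replicate 1 arrays or the fibroblast level were taken into account. Without replicate 1 of all feeder-grown groups 8 members were higher, and with the fibroblast list mean as a covariate 8, against 4 in the main model. The share of all genes called in these alternatives is not given here, so the gain cannot be read as particular to these members. The gains included Itgb1 (0.65 and 0.47, against 0.46) and Itgav (0.63 and 0.47, against 0.47), with adjusted p of 0.00335 and 0.00412 for Itgb1 and 0.00557 and 0.00696 for Itgav. Leaving out EOS3F-29 replicate 1 alone gave 0.64 for Itgb1 and 0.65 for Itgav, both called. The fibroblast list itself had 0 of 19 genes called between EOS3F-24 and the full lines by limma, with 0 higher and 0 lower at an unadjusted p under 0.05.

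**Figure D4:**
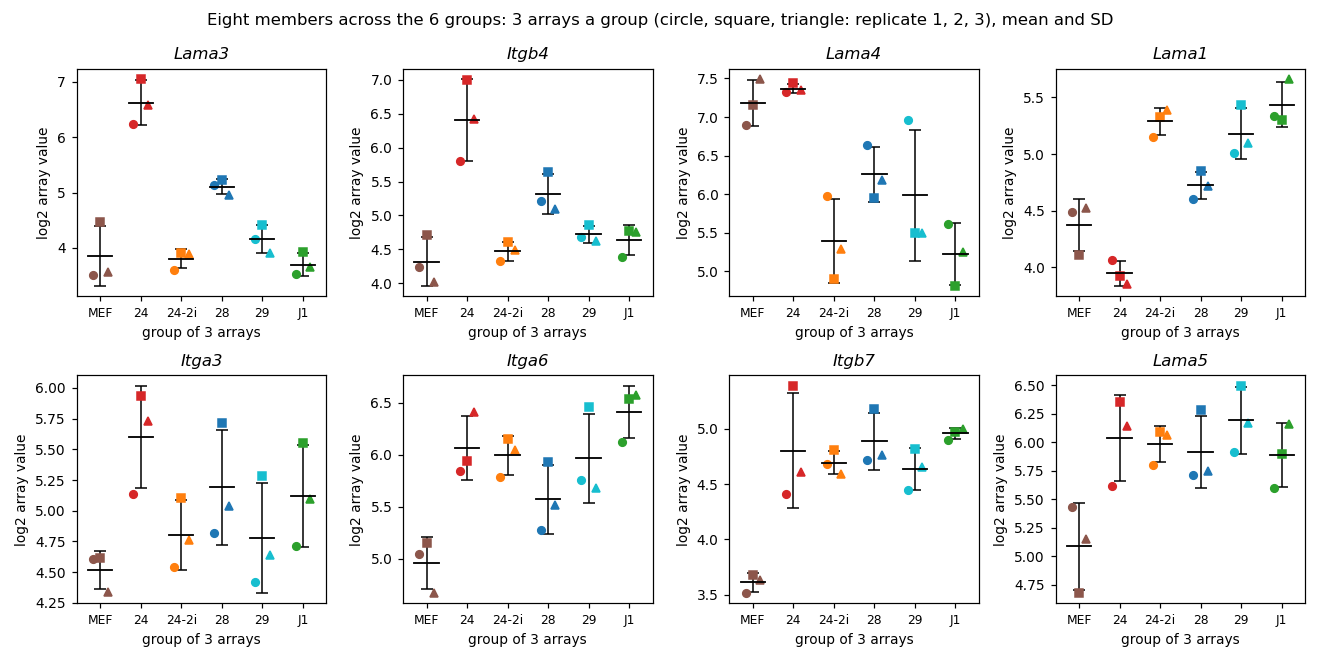
Log2 array values of 8 members by group (MEF, EOS3F-24 as 24, EOS3F-24 after 2i as 24-2i, EOS3F-28 as 28, EOS3F-29 as 29, J1), with points for single arrays and bars for mean and SD of 3 arrays. Lama3 and Itgb4 are highest in EOS3F-24 and next in EOS3F-28, Lama1 is lowest in EOS3F-24, and Itga6, Itgb7 and Lama5 are lowest in MEFs.

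Keratinocyte markers were highest on average in the same lines as Lama3 and Itgb4. The 12 markers averaged 5.50 in EOS3F-24 (arrays 5.30 to 5.72), 4.07 in MEFs (3.63 to 4.90), 4.74 in EOS3F-28 (4.68 to 4.78), 4.08 in EOS3F-29, 3.96 in J1 and 3.85 after 2i. Krt13, Krt14, Krtdap and Dsg3 were higher in EOS3F-24 than in the full lines, by 3.79, 2.53, 3.21 and 1.81. The other 8 were not called, among them Krt17, at 4.32, 4.74 and 4.53 in EOS3F-24 and 4.64 to 5.13 in the full lines. The basal keratinocyte genes Krt5 and Trp63 had means of 3.67 and 3.80 in EOS3F-24, under the array median, and Col17a1, a hemidesmosome collagen, had 4.13. The part of these markers in the levels of Lama3 and Itgb4 was not tested.

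After 2i conversion, Lama3, Lama4 and Itgb4 were lower than in EOS3F-24 and Lama1 was higher. Puromycin is listed for EOS3F-24 and not for the converted cells. The converted state, the presence of the inhibitors and the other culture differences therefore cannot be told apart. In all, 3 members rose and 6 fell, 25% against a background of 22.4% of all genes (9.36% higher and 13% lower), again near the share in general. With at least a 2-fold change 1 rose and 4 fell (background 2.16% and 3.06%). Lama3 went from a mean of 6.62 ± 0.41 to 3.80 ± 0.17 (SD, n = 3), a difference of -2.82 ± 0.23 (SE, 7.07-fold, adjusted p = 8.08e-08). Lama4 went from 7.37 ± 0.06 to 5.39 ± 0.54 (SD, n = 3), with converted arrays at 5.97, 4.90 and 5.29 and a difference of -1.98 ± 0.34 (3.94-fold, adjusted p = 0.000282). Itgb4 went from 6.41 ± 0.60 to 4.47 ± 0.14, a difference of -1.94 ± 0.24 (3.84-fold, adjusted p = 9.96e-06). Lama1 rose from 3.95 ± 0.11 to 5.29 ± 0.12, by 1.34 ± 0.14 (2.53-fold, adjusted p = 1.77e-06). For these 4 genes the arrays of the groups did not overlap, as for 6 members higher and 9 lower in all (background 17.6% and 20.2%), and the 4 calls held in each of 17 alternatives.

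Other integrin subunits were also called on conversion. Itgav fell by 1.02 on the log2 scale, from arrays of 7.36, 7.31 and 7.02 to 6.44, 6.11 and 6.08 (adjusted p = 0.00327). Itga7 fell by 0.77, from 4.53, 5.39 and 5.14 to 4.40, 4.20 and 4.15 (adjusted p = 0.00486). Itga3 fell by 0.80, from 5.13, 5.93 and 5.73 to 4.54, 5.10 and 4.77 (adjusted p = 0.0399), a call lost without converted replicate 1 or 3 or EOS3F-24 replicate 2 or 3 (-0.63 to -0.78). Itga9 rose by 0.68, from 4.19, 3.79 and 3.74 to 4.59, 4.54 and 4.62 (adjusted p = 0.00236), which was 0.09 and uncalled after housekeeping centring. Itgal rose by 0.33 (adjusted p = 0.0322), lost its call without converted replicate 1 or 3 or EOS3F-24 replicate 2 or 3, and turned to -0.26 after housekeeping centring. Itgb1 read 8.88, 8.10 and 8.11 after conversion, below all EOS3F-24 arrays, and its difference of -0.73 missed the threshold (adjusted p = 0.0618). Itga6 (-0.07, 95% interval -0.53 to 0.39), Itgb7 (-0.11), Lama5 (-0.05) and Lamb1 (-0.08) differed by less than their errors, as did Itga1 (-0.07), Itga11 (-0.07) and Lama2 (0.07).

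With the replicate number as a block across all 18 arrays, 10 members fell instead of 6. The block also covers groups whose same-numbered arrays did not correlate above 0.1 for every number. In this comparison 4 of 6 checks matched best on the own number. The labels do not state such a pairing, so the smaller p-values under the block rest on the values alone. The gained falls were Itga5 (-0.53, adjusted p = 0.0460), Itgb1 (-0.73, 0.00231), Itgb3 (-0.53, 0.0349) and Lamb2 (-0.56, 0.0155), and 3 rose as before. Without replicate 1 of all feeder-grown groups 2 rose and 8 fell, Itgb1 (-0.92) and Itgb3 (-0.79) among them. After housekeeping centring 1 member rose and 28 fell, so that 3.45% of calls were higher against 33.3%, and after centring on the housekeeping genes' deviations 2 rose and 8 fell (20%). The fibroblast markers had 0 of 19 called on conversion by limma (0 higher and 1 lower at an unadjusted p under 0.05), with a median difference of -0.34. With their mean as a covariate Lama3 was -2.91, Lama4 -1.69, Itgb4 -2.08, Itgav -0.83 and Lama1 1.30, all called.

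**Figure D5:**
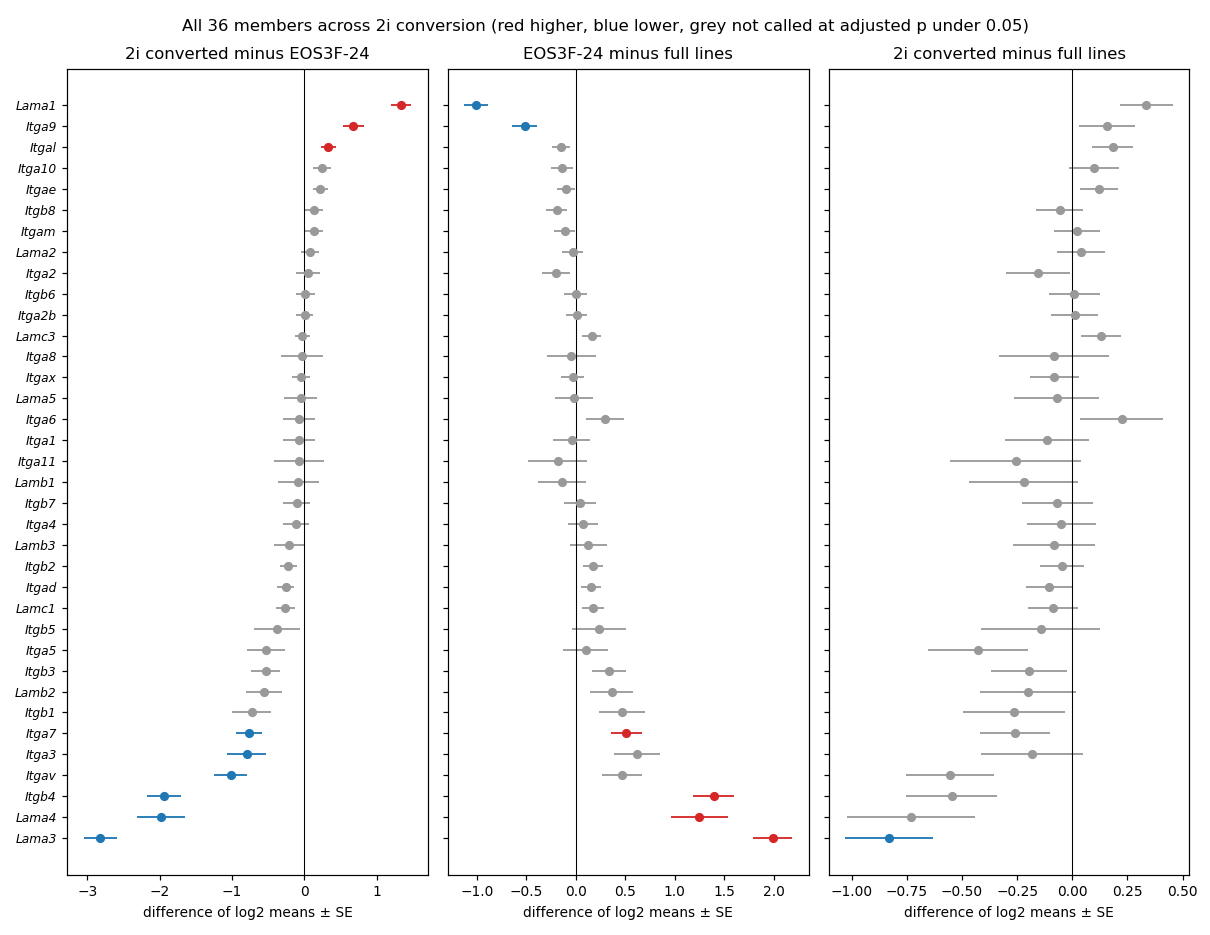
Difference of log2 means for all 36 members in 2i converted cells minus EOS3F-24 (left), EOS3F-24 minus the full lines (middle) and 2i converted cells minus the full lines (right), each with its SE; the horizontal scales differ. Lama3, Lama4 and Itgb4 lie at -2.82, -1.98 and -1.94 on the left, and Lama3 at -0.83 is the only called member on the right.

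Neighbouring laminin receptors and keratinocyte markers also changed on conversion. Of 12 other laminin receptor and hemidesmosome genes, 3 rose and 5 fell. Cd44, a hyaluronan receptor, was at -2.11, Plec, the plectin that ties hemidesmosomes to keratin, at -1.44, and Cd151, the tetraspanin partner of alpha3 and alpha6 integrins, at -1.15. Mcam and Bcam, laminin-binding membrane proteins of the immunoglobulin family, were at 1.73 and 0.96. Nid2, the second nidogen, rose by 2.88 from a mean of 4.33 to 7.21, the largest of 3 rises among 20 basement membrane partners. Keratinocyte markers had 5 of 12 lower, with Krtdap at -5.66, Krt13 at -5.16 and Krt14 at -4.07, and 0 called higher. Krt17 went the other way without a call, from 4.32, 4.74 and 4.53 to 5.34, 5.04 and 5.29. The part of these in the fall of Lama3 and Itgb4 was not tested. Endoderm markers, which in embryos accompany high Lama1, averaged 4.97 in EOS3F-24 and 4.64 after conversion. By limma 0 of 10 were higher (0 at an unadjusted p under 0.05) and 2 were lower. Their part in the rise of Lama1 was not tested.

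Between the converted cells and the full lines few of these genes were called. The inhibitors are listed for the converted cells and puromycin for the full lines, so cell line, inhibitors and drug cannot be told apart here. Of the 36, 0 were higher and 1 was lower (Lama3, -0.83 ± 0.20 SE, adjusted p = 0.0189), 2.78% against a background of 5.16% (3.96% higher and 1.2% lower). None reached 2-fold, against 0.246% of all genes higher and 0.12% lower, and 0 were higher and 1 lower without overlap (Itgb4, background 5.82% and 2.45%). At an unadjusted p under 0.05, 1 was higher and 4 were lower. The share of all genes at that unadjusted threshold is not given here. The Lama3 call was lost without any single converted replicate (adjusted p 0.0701 to 0.0743). Without replicate 1 of all feeder-grown groups it was lost too (-0.73, adjusted p = 0.0917), and Lama4 was the 1 member called (-0.68, adjusted p = 0.0290). The Lama3 difference was -1.30 against EOS3F-28 alone and -0.36 against EOS3F-29 alone (adjusted p = 0.533). Against EOS3F-28 alone 1 member was higher, Lama1 (0.56, adjusted p = 0.0253), and 2 were lower, with Itgb4 at -0.84 (adjusted p = 0.0469). Lama4 (-0.73, 95% interval -1.34 to -0.12), Itgav (-0.55, -0.97 to -0.13) and Itgb4 (-0.55, -0.98 to -0.12) missed the adjusted threshold, so a difference of these sizes is not excluded by it.

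The full lines differed from J1 in 2 of the 36 genes, 5.56% against a background of 4.76%, with Lama3 higher and Lama1 lower (background 1.29% higher and 3.47% lower). Neither reached 2-fold, against 0.176% and 0.226% of all genes, and 1 member was higher without overlap (Itga7, 0.29, not called) and 0 lower (background 2.38% and 5.02%). Lama3 was 0.94 ± 0.20 above J1 (SE, adjusted p = 0.0100), which was 1.41 for EOS3F-28 alone and 0.47 for EOS3F-29 alone (adjusted p = 0.412). The Lama1 difference was -0.48 ± 0.12 (adjusted p = 0.0285), which was -0.71 for EOS3F-28 alone and -0.25 for EOS3F-29 alone. The Lama3 call was lost without J1 replicate 3 (adjusted p = 0.0693). Without replicate 1 of all feeder-grown groups both calls were lost (Lama3 0.84, adjusted p = 0.0648; Lama1 -0.46, adjusted p = 0.116), and Lama4 was called (0.75, adjusted p = 0.0253). The Lama1 call was lost without J1 replicate 3 (-0.37) or replicates 1 or 3 of either full line (adjusted p 0.0525 to 0.0642). Itga6 was -0.64 ± 0.19 (adjusted p = 0.0622) and Lama4 0.90 ± 0.29 (adjusted p = 0.0933), both short of the threshold. After housekeeping centring 2 members were higher and 0 lower, so the split went from 50% to 100% higher. Puromycin is listed for the full lines and not for J1, so drug, cell line and reprogramming cannot be told apart here.

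Between the full lines 0 of the 36 genes were called by limma, against a background of 0.532% of all genes (0.301% higher and 0.231% lower). At an unadjusted p under 0.05, 2 were higher and 3 lower in EOS3F-28, with the share of all genes not given here. The largest difference was Lama3, with 5.13, 5.22 and 4.96 in EOS3F-28 and 4.16, 4.41 and 3.91 in EOS3F-29 (0.94 ± 0.23 SE, 1.92-fold, adjusted p = 0.0866, 95% interval 0.46 to 1.43). With the replicate number as a block across all 18 arrays, Lama3 was called (adjusted p = 0.00344). That pairing was seen in the values here and is not stated in the labels. Itgb4 (0.59, adjusted p = 0.353) and Lama1 (-0.46, adjusted p = 0.192) did not overlap between the lines either, as was the case for 3 members higher and 4 lower (background 5.1% and 9.87%). Krtdap, a keratinocyte marker, averaged 6.82 in EOS3F-28 and 4.20 in EOS3F-29.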

How the data were processed

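Expression was measured on 18 single-channel arrays, 3 in each of 6 groups. The deposited values are log2 intensities, and the submitters' processing notes name RMA as the authors' method. Its version and the genome build are not given in the sources at hand. Of 34760 probe sets, 21640 had a single gene symbol in the platform annotation, 1321 had several and 11799 were not listed. For each of the 19937 genes the probe set with the highest mean was kept. No read depth exists for arrays, and their number limits the precision.

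Group means were estimated for every gene in 1 linear model over all arrays with limma 3.58.1 (lmFit and eBayes, R 4.3.3), without a low-value filter. Benjamini-Hochberg adjustment ran over all 19937 genes, and a gene was called at an adjusted p under 0.05, with 2-fold as a second threshold. Differences are of log2 means, with SE from the fit. The fit was tested on simulated data. The members, the gene lists and the tests were chosen with earlier results of these data known. Array values are given most fully for members with a called change of at least 2-fold and no overlap, and for 8 members fixed by name (Itga6, Itgb1, Itgav, Itga5, Lama1, Lama5, Lamb1 and Lamc1). For some of these members a group is left out or is given only as a range.

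The labels number the replicates 1 to 3 without saying that a number marks a shared culture or day. Deviations of same-numbered arrays correlated above 0.1 for every number in converted against EOS3F-24 cells (0.383, 0.140 and 0.122) and in EOS3F-28 against EOS3F-29 (0.542, 0.639 and 0.149), and not in the other 6 comparisons. The pairing of these comparisons therefore rests on the values alone, and the replicate block was fitted across all 18 arrays.

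Alternatives were cyclic loess, centring on housekeeping genes, leaving out genes under a log2 mean of 5 in every group, other probe set rules, other eBayes settings, only the arrays compared, a replicate block, each full line alone and each array left out. Chosen after seeing the data were the centring on housekeeping genes' deviations from their own means, the omission of replicate 1 of all feeder-grown groups and the fibroblast list mean as a covariate (without the MEFs). Promoters are RefSeq's for GRCm38.p6.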

Additional observations from a re-analysis of the deposited data

Results flagged for a closer look

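For 6 members the change from MEFs in EOS3F-24 differed from that in the full lines. The MEF arrays are shared, so this is the same test as EOS3F-24 against the full lines, given as the change in EOS3F-24 minus the change in the full lines on the log2 scale, with limma's adjusted p. The difference was 1.99 for Lama3 (adjusted p = 1.14e-06), 1.39 for Itgb4 (9.08e-05) and 1.25 for Lama4 (0.00492). It was -1.01 for Lama1 (1.07e-05), -0.52 for Itga9 (0.00720) and 0.51 for Itga7 (0.0310). Lama1 moved in opposite directions, with -0.43 in EOS3F-24 and 0.58 in the full lines.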

How the results depend on the processing

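Across 31 alternatives, 55 of the 81 calls of single members kept their direction and stayed past the threshold, and 26 lost it in at least 1. Housekeeping centring moved most. It gave 23 members lower in EOS3F-24 and in J1 against MEFs, 2 higher in the full lines and 3 in J1, 1 higher and 28 lower on conversion, 36 lower in converted cells against the full lines, 2 higher and 0 lower in the full lines against J1, and 1 higher in EOS3F-28. Sign changes of a difference that was called on at least 1 of the scales numbered 21, all under this centring: in EOS3F-24 against MEFs Itgae (-0.52) and Itgal (-0.47); in J1 Itgal (-0.16) and Itgb2 (-0.51); on conversion Itga2 (-0.54), Itga2b (-0.58), Itgal (-0.26), Itgam (-0.45), Itgb6 (-0.57) and Lama2 (-0.51). Against the full lines, converted cells turned in Itga10 (-0.64), Itga2b (-0.72), Itga6 (-0.51), Itga9 (-0.58), Itgae (-0.61), Itgal (-0.55), Itgam (-0.71), Itgb6 (-0.73), Lama1 (-0.40), Lama2 (-0.70) and Lamc3 (-0.61). This centring shifts each array by 1 middle gene's level. Of the 114 differences never called in any alternative, 67 changed sign in at least 1, this centring included. Deviation centring gave 3 lower in converted cells against the full lines, and 2 higher and 0 lower in the full lines against J1.

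The replicate block gave 7 higher in EOS3F-24 against the full lines, 10 lower on conversion, 3 lower in converted cells against the full lines, 2 higher and 2 lower against J1 and 1 higher in EOS3F-28; it changed no other count by over 1.5 times. Every array correlated best with its own number in 1 of the 8 comparisons (EOS3F-28 against EOS3F-29). The fibroblast covariate gave 8 higher in EOS3F-24, 2 lower in converted cells, 2 higher and 3 lower against J1 and 1 higher in EOS3F-28. Cyclic loess gave 2 lower in converted cells and 1 higher in EOS3F-28. Leaving out dim genes tests fewer genes, and gave 3 higher in J1 against MEFs, 1 lower in EOS3F-24 against the full lines, 1 higher on conversion and 2 lower in the full lines against J1. Fitting only the arrays compared gave 2 lower in converted cells and 0 lower against J1, and testing all probe sets 0 lower against J1. With EOS3F-28 alone there were 1 lower in EOS3F-24, 1 higher and 2 lower in converted cells and 3 lower against J1. With EOS3F-29 alone there were 4 higher against MEFs, 0 lower in converted cells and 0 in either direction against J1. The causes were not tested, and the share of all genes called in each alternative is not given here.

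Leaving out arrays gave 6 to 7 higher and 11 to 15 lower in EOS3F-24 against MEFs, 5 to 9 and 14 to 16 in the full lines, and 4 to 6 and 13 to 15 in J1. It gave 3 to 8 higher and 1 to 2 lower in EOS3F-24 against the full lines, and 2 to 3 and 5 to 8 on conversion. In converted cells against the full lines it gave 0 to 0 higher and 0 to 2 lower, in the full lines against J1 0 to 2 and 0 to 2, and in EOS3F-28 against EOS3F-29 0 to 0 and 0 to 1. Among the 145 median differences compared, 19 moved by more than the spread. With 3 arrays a group, small differences of members near the array median cannot be resolved.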
